A study of Mus musculus with 4 samples.

Results

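Olfactory receptor genes with reads in mouse blood progenitors were described here for 5 members, Olfr613, Olfr856-ps1, Olfr1033, Olfr414 and Olfr646. They are 5 of the 1125 olfactory receptor rows in a table of 24421 gene symbols, and they were chosen by their counts: reads were detected and the level was higher in Zfp521 knockout cells than in control cells. That choice used the comparison of the genotypes itself, so the levels and folds of the 5 genes are a description and carry no test.

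The libraries were made from LSK cells, the bone marrow fraction without lineage markers and positive for Kit and Sca-1, a mixture of blood stem cells and multipotent cells. The cells came from Zfp521-/- mice (KO, 2 libraries) and from control littermates labelled wild type (WT, 2 libraries). Age, strain and the design of the deleted allele are not given in the labels. Each genotype is given as a pair of independent RNA samples from cell pools, with no word on which animals went into which pool. The p-values therefore rest on the variation among these RNA samples only, some of which may be technical.

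Olfactory receptors are G protein-coupled receptors that bind odorants on the cilia of olfactory sensory neurons, where a specialised G protein and adenylyl cyclase pass the signal to a cyclic nucleotide-gated channel. They form the largest gene family of the mouse and sit in clusters on most chromosomes. In the nose each neuron expresses mainly a single receptor allele, while the other genes of the family lie in silenced chromatin. Reads of single family members have been found in many tissues outside the nose. EBF proteins, of which Ebf1 is the B cell member, were first described as Olf-1 factors at olfactory promoters, and the zinc finger proteins Zfp423 and Zfp521 are known to bind and inhibit EBF proteins.

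Library totals were 22000036 and 17787425 counts in KO and 29863594 and 25813391 counts in WT. Levels in CPM, counts scaled to a common library size, use TMM, a factor that offsets differences in composition. A floor of 3 counts came to between 0.108 and 0.152 CPM and covers counting error only. Zfp521 itself had 308 and 215 counts in KO and 1561 and 1429 counts in WT, the direction its label gives. WT replicate 2 stood apart by sex, with 606 Xist counts against 227405 and 230977 in KO and 160613 in WT replicate 1, and with 5616 counts on 5 Y-linked rows against 20 to 23 in the other libraries. Without WT replicate 2 the log2 ratios of the members, KO over WT, were 1.35 for Olfr613, 1.09 for Olfr856-ps1 and 4.11 for Olfr1033. All libraries carried the markers of the sorted fraction, with a list of 9 genes that holds Kit, Ly6a, Cd34 and Flt3 summing to 3575 and 3288 CPM in KO and to 3225 and 3375 CPM in WT, and 1 of these 9 genes was called lower in KO.

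Olfr613 was the olfactory receptor with the most reads. It is a protein-coding gene (ENSMUSG00000078624.4 in GENCODE) on the plus strand of chromosome 7, from 103548074 to 103555506 in mm10, with 2 annotated transcripts of up to 2 exons and a coding part of 951 bases without the stop codon. It had 1158 and 1281 counts in KO, against 636 and 627 counts in WT. In CPM this was 52.3 and 65.1 in KO and 22.8 and 25.2 in WT, and the groups did not overlap. The mean was 58.7 ± 8.99 CPM in KO and 24.0 ± 1.69 CPM in WT (SD, n = 2 each), a 2.43-fold higher level from pooled counts (95% exact interval 2.27 to 2.61, counting error only). In such bulk samples, more or fewer cells of a type and more or less RNA per cell cannot be told apart, here and for all levels that follow.

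The RefSeq model of Olfr613 starts inside the longer GENCODE model, and the 250 bases before that start are shown because many of their words recur before other genes. They lie at chr7:103550118-103550367 (RefSeq, GRCm38.p6, plus strand), and capitals mark the TATAAA match.
Olfr613: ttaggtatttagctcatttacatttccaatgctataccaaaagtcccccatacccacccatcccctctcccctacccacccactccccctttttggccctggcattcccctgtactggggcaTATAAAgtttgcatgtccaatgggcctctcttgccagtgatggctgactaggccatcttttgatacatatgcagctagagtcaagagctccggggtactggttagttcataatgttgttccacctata
Of its 226 words of 25 bases, 154 (68.1%) also occur in the start windows of other genes, on either strand, and a single word occurs in those of up to 22 other genes. Inside the transcripts longer words were searched, and against transcripts, so that share is not like for like with the one above. Of 5144 words of 76 bases, the read length in the labels, 155 (3.01%) occur in transcripts of 32 other genes, and none of these is among the 879 coding words. Copies outside annotated transcripts were not searched.

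Olfr856-ps1 had the next most reads and is annotated as a pseudogene, a receptor gene copy without an intact reading frame. Its mm10 position is chromosome 9, 19657057 to 19658647, minus strand (ENSMUSG00000110521.1), and its 2 exons hold 948 bases. RefSeq lists it as a transcribed pseudogene. Its longest open frame has 819 bases with the stop codon, against 933 to 954 coding bases in the other 4 genes. It had 571 and 612 counts in KO, against 369 and 270 counts in WT. This was 25.8 and 31.1 CPM in KO and 13.2 and 10.9 CPM in WT, again with no overlap. The mean was 28.4 ± 3.73 CPM in KO and 12.1 ± 1.69 CPM in WT (SD, n = 2 each), a 2.33-fold higher level (95% exact interval 2.12 to 2.57, counting error only). None of its 873 words of 76 bases occurs in a transcript of another gene. The nearest listed gene of another family, Zfp317, ends 7.33 kb away on the opposite strand and had 541 and 669 counts in KO and 794 and 533 counts in WT.

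Olfr1033 had more reads in KO and few in WT. It is a protein-coding gene with 5 annotated transcripts on the plus strand of chromosome 2, from 86020633 to 86045171 in mm10 (ENSMUSG00000045392.8). It had 90 and 170 counts in KO and 10 and 12 counts in WT, or 4.07 and 8.63 CPM against 0.359 and 0.483 CPM. Both KO libraries lay above both WT libraries, and KO replicate 2 was the higher of the KO pair. The mean was 6.35 ± 3.23 CPM in KO and 0.421 ± 0.088 CPM in WT (SD, n = 2 each), a 14.9-fold higher level (95% exact interval 9.63 to 24.2, counting error only). The log2 ratio, 3.90, was 3.29 without KO replicate 2.

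Olfr1033 has a near copy, Olfr1032, next to it on chromosome 2, whose coding sequence is 95.4% identical over 934 aligned bases. Within the coding sequence, reads of the pair can be told apart only at the 41 mismatched bases and the alignment's gaps. The coding stretch of 60 bases with the most differences, bases 574 to 633 of each, is shown 5′ to 3′ with the 10 differing bases in capitals, from GENCODE's mm10 transcripts.
Olfr1033: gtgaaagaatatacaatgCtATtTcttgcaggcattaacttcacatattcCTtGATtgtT
Olfr1032: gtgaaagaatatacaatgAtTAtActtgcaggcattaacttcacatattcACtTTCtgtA
Of 858 coding words of 76 bases in Olfr1033, 92 occur in Olfr1032 as well. Olfr1032 had 0 counts in all 4 libraries, so the deposited counts place the reads of the pair on Olfr1033.

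Olfr414 had reads in KO and none in WT. It lies on the plus strand of chromosome 1 from 174424064 to 174434747 in mm10 (ENSMUSG00000051509.6), with 951 coding bases. It had 30 and 13 counts in KO, or 1.36 and 0.660 CPM, and 0 counts in both WT libraries. The level in KO was at least 18.1-fold higher than a floor of 3 counts over the 2 WT libraries. Olfr646 showed the same kind of pattern. It lies on the plus strand of chromosome 7 from 104104873 to 104109766 (ENSMUSG00000073931.3), on the same chromosome as Olfr613. It had 12 and 43 counts in KO, or 0.542 and 2.18 CPM, and 0 counts in both WT libraries, at least 23.1-fold higher than the same floor. On the log2 scale the bound for Olfr414 was 4.18, and leaving out a library changed it to 3.54 (KO replicate 1), 3.09 (WT replicate 1) or 3.25 (WT replicate 2). That for Olfr646 was 4.53, and it became 5.26 (KO replicate 1 left out), 3.25 (KO replicate 2), 3.45 (WT replicate 1) or 3.61 (WT replicate 2). Few of their words of 76 bases occur in transcripts of other genes, 32 of 4451 (0.719%) for Olfr414 and 8 of 3776 (0.212%) for Olfr646, and none of these is a coding word. Of 17659 rows with a read, 21 (0.119%) had at least 10 reads in both KO libraries and none in WT, and Olfr414 and Olfr646 are among them.

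The RefSeq start windows of Olfr414 and Olfr646 begin in an intron of the GENCODE models. They are shown up to the last base before the exon, to let the end of the intron be seen. Both stretches end in AG, the usual last bases of an intron. For Olfr414 the GENCODE model is the longer one. For Olfr646 the RefSeq gene begins further upstream, at 104097316, so the stretch shown lies inside the RefSeq gene as well. The Olfr414 stretch is chr1:174430180-174430408 and the Olfr646 stretch is chr7:104106031-104106215 (RefSeq, GRCm38.p6, plus strand). Capitals mark a TATAAA match.
Olfr414: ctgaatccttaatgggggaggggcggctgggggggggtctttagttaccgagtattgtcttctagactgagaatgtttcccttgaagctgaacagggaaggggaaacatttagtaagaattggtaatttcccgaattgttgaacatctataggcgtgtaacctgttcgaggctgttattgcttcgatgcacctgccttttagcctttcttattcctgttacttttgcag
Olfr646: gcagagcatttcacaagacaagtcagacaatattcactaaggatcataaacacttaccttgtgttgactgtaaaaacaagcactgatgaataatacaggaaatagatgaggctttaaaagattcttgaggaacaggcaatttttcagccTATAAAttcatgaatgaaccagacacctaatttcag
None of their words of 25 bases occurs in the start window of another gene, unlike those of Olfr613. The motifs searched on both strands of the 3 stretches were CCCNNGGG, the core of the palindrome that EBF proteins bind, TAATTA, a homeodomain core, and TATAAA. None of the 3 stretches holds CCCNNGGG or TAATTA, and TATAAA occurs once in that of Olfr613 and once in that of Olfr646. In the 250 bases before the start of all 32851 RefSeq windows these letters are found in 11.8%, 4.84% and 12.4%, and among 948 olfactory receptor windows in 2.74%, 18.04% and 39.2%. The stretches searched were shorter for Olfr414 (229 bases) and Olfr646 (185 bases), so these shares are not like for like with them. The other members have no entry in the window table.

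**Figure D1:**
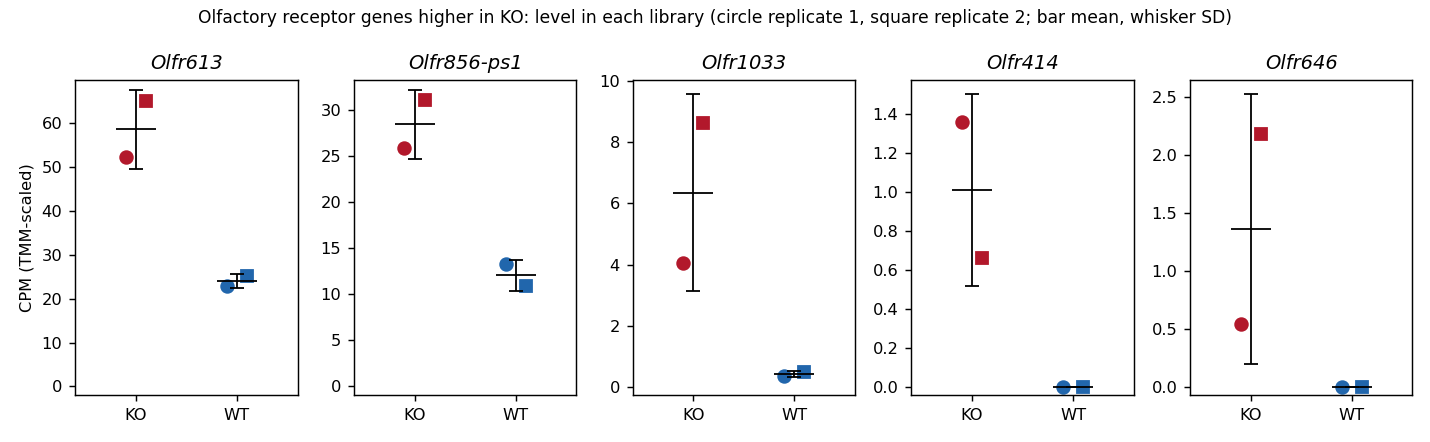
Level of each of the 5 genes in CPM (TMM-scaled, linear axis, a separate scale for each gene) in the 2 KO and 2 WT libraries, with the mean as a bar and the SD as a whisker. Olfr613 at 52.3 and 65.1 CPM in KO has the highest level, and Olfr414 and Olfr646 have 0 counts in both WT libraries.

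Per kilobase of annotated exon, the order of the mean levels in KO was Olfr856-ps1 (30.0 CPM per kb), Olfr613 (11.2), Olfr1033 (1.49), Olfr646 (0.361) and Olfr414 (0.223). In WT the first 3 genes of that order stood at 12.7, 4.60 and 0.099 CPM per kb, and the other members were at 0. Olfr646 and Olfr414 did not differ beyond their spread in KO, with 0.143 and 0.578 CPM per kb for Olfr646 and 0.300 and 0.146 CPM per kb for Olfr414. The other neighbours in the order did not overlap in KO. These lengths are GENCODE's, and the annotation behind the counts is not given in the sources used here. With the RefSeq span of 955 bases, Olfr414 would stand at 1.05 CPM per kb in KO.

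The coding sequences of the 4 protein-coding members are not close relatives, with 56.9% to 59.7% identical bases in the 6 pairs. The nearest other olfactory receptor coding sequence was 68.4% to 69.6% identical for Olfr414, Olfr613 and Olfr646 over aligned stretches of 351 to 807 bases. For Olfr856-ps1 it was Olfr371, 69.6% identical over 904 bases. Each of these nearest relatives had 0 counts in all libraries. All 5 members have a GENCODE model with 2 or more exons, as do 59 of 71 other olfactory receptor genes with reads (83.1%) and 939 of 1038 matched genes without reads (90.5%). Their exon length had a median of 4261 bases, against 2929 and 2936 bases in those sets.

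The comparison across all genes, made with edgeR's quasi-likelihood test, called 533 genes higher in KO (3.77% of 14140 tested) and 425 lower (3.01%), or 6.78% in either direction. These counts depended on which libraries were kept, though they stayed close to the main ones when the second KO library was left out. Leaving out the first WT library gave 160 higher and 95 lower, the second WT library 220 higher and 101 lower, and the first KO library 997 higher and 1161 lower. With upper quartile factors in place of TMM, 664 genes were higher and 289 lower. The 5 members are those of 16 tested olfactory receptor rows with an adjusted p under 0.05, Olfr414 lying just inside, which describes the choice and supports nothing. Just outside were Olfr99 and Olfr248. Olfr99 had 79 and 62 counts in KO and 14 and 15 in WT, and Olfr248 had 25 and 30 counts in KO and 2 and 3 in WT, and in both the groups did not overlap.

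Reads of the remaining family were also more plentiful in KO. The 1120 other olfactory receptor rows summed to 607 and 551 counts in KO and to 234 and 162 counts in WT, or 27.4 and 28.0 CPM against 8.40 and 6.52 CPM. The KO libraries lay above both WT libraries although they are the shallower ones. The pooled level was 3.69-fold higher (95% exact interval 3.29 to 4.14, counting error only), and the exact two-sided permutation test of 2 against 2 libraries cannot give a p below 0.333. Rarely read genes of other families were also higher in KO. The 5459 rows of other families with 1 to 170 reads in all, the range of these rows, were pooled 1.61-fold higher, with 2754 and 3102 CPM in KO and 1686 and 1948 CPM in WT. With the 5 members included, the whole family held 2468 and 2670 counts in KO and 1249 and 1071 counts in WT. The members made up 75.4% and 79.4% of these in KO and 81.3% and 84.9% in WT.

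More olfactory receptor rows had a read in KO. At least 1 read was found for 50 and 46 of the 1125 rows in KO and for 31 and 26 rows in WT, and 1049 rows had none in any library. With every library thinned to the smallest total, 48.0 and 46.0 rows would be left with a read in KO and 25.8 and 25 in WT. Over all genes the counts were nearly level, at 16101 and 16142 rows in KO and 16001 and 15792 rows in WT. Of the 71 other olfactory receptor rows with reads, 34 (47.9%) had reads in KO and none in WT, and 9 (12.7%) the reverse. Among the 5459 rows of other families with 1 to 170 reads in all, these shares were 16.9% and 13.0%. Those rows were matched by range only. They held 122027 counts in KO and 95376 in WT, against 1158 and 396 in the 71 rows, and so had more reads per row. The shares are therefore not like for like.

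Most of these rows were seen in a single library. Of the 71 rows, 38 (53.5%) had all their reads in 1 library, 17 of them in KO replicate 1, 12 in KO replicate 2, 6 in WT replicate 1 and 3 in WT replicate 2. This held for 22.5% of the rows of other families with 1 to 170 reads, which had more reads per row. Olfr1420 had 44 counts in KO replicate 2, 0 in KO replicate 1, 2 in WT replicate 1 and 0 in WT replicate 2. Olfr419 had 50 counts in KO replicate 1 and 2 in KO replicate 2, against 1 and 6 in WT. Whether such counts stem from many molecules or from copies of few cannot be told here, as the handling of duplicate reads is not given in the sources used here.

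In 13 of the 71 other olfactory receptor rows with a read, both KO libraries lay above both WT libraries (18.3%, against 26.5% of all 17659 rows with a read). In 0 of the 71 did both KO libraries lie below both WT libraries (0%, against 23.8% of all rows). The share above did not exceed that of all rows. However, the 38 rows with all their reads in 1 library could not separate the groups in either direction. The shares are therefore not like for like with those of all rows. Among the other rows with the most reads, Olfr648 had 56 and 45 counts in KO and 1 and 14 in WT, and Olfr56 had 55 and 30 counts in KO and 29 and 7 in WT. Olfr658, with 25 and 47 counts in KO and 54 and 7 in WT, and Olfr90, with 40 and 12 counts in KO and 19 and 22 in WT, overlapped between the groups. So did Olfr1509, Olfr433 and Olfr657. Olfr920 had 18 and 46 counts in KO and 1 and 13 counts in WT, without overlap.

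**Figure D2:**
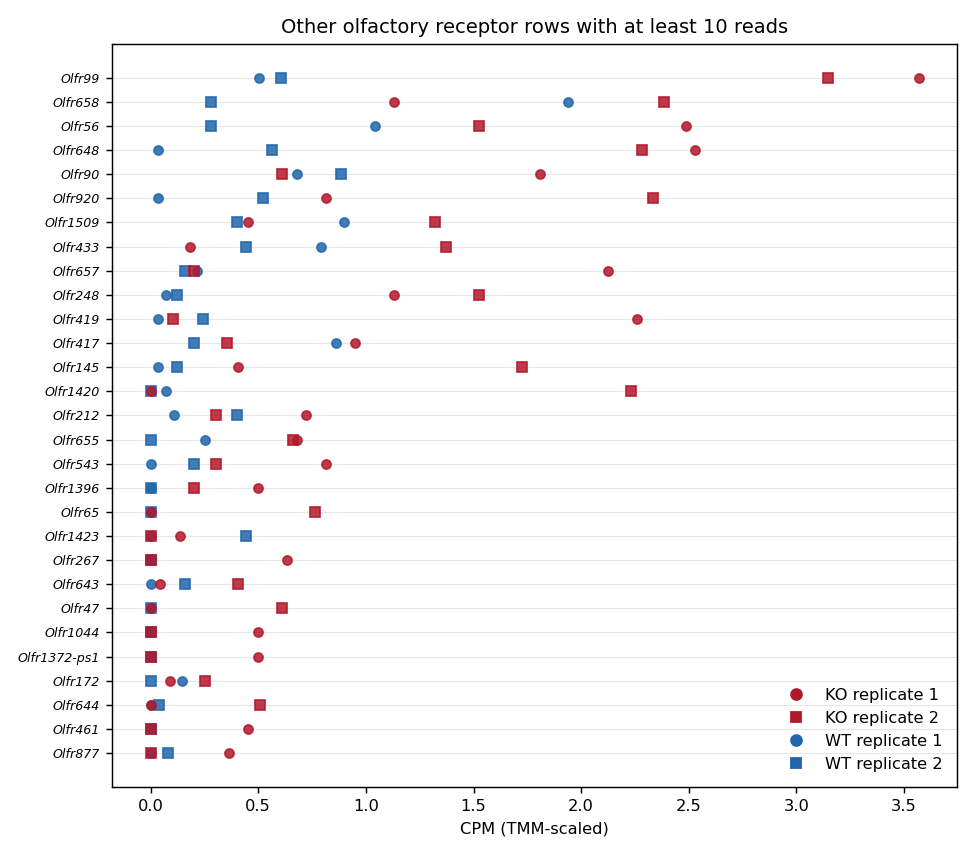
CPM (TMM-scaled) in each library of the 29 other olfactory receptor rows with at least 10 reads in all, ordered by their total. In 9 of them both KO libraries lie above both WT libraries, and in the remaining 20 the groups overlap or tie.

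Other chemosensory receptor families gave a partly similar picture. The 338 vomeronasal receptor rows, which serve the detection of pheromones, had reads in 11 and 16 rows in KO and in 13 and 11 rows in WT, so the number of rows did not separate the groups. Their sum was 37.4 and 47.0 CPM in KO and 16.7 and 18.9 CPM in WT, mostly from Vmn1r58, with 631 and 665 counts in KO and 358 and 305 counts in WT. Vmn1r58 rose by a log2 fold change of 1.31 (edgeR quasi-likelihood test, adjusted p = 0.0152). The 38 taste receptor rows summed to 9.17 and 10.9 CPM in KO and 6.25 and 6.80 CPM in WT. The 15 trace amine receptor rows, a second class of olfactory receptors, had 0 counts in every library.

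**Figure D3:**
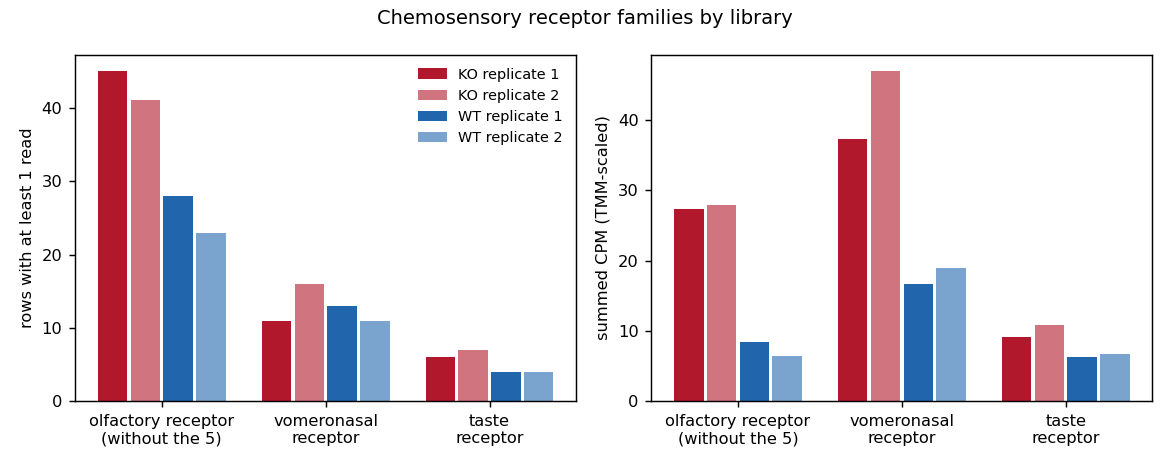
Number of rows with at least 1 read and summed CPM (TMM-scaled) of 3 chemosensory receptor families in each library, the olfactory receptors without the 5 genes described above. The olfactory receptor rows stand at 45 and 41 rows with a read in KO and 28 and 23 in WT, and the vomeronasal rows overlap in number but not in summed CPM.

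The members differed in their surroundings. In the 500 kb on each side of Olfr646, 12 of 33 other olfactory receptor rows had a read, and they summed to 76 and 110 counts in KO and 10 and 23 counts in WT. Around Olfr414, 6 of 13 such rows had a read, with 100 and 69 counts in KO and 52 and 25 counts in WT. Around Olfr1033 the other 57 rows summed to 14 and 16 counts in KO and 0 counts in both WT libraries, from 7 rows. Around Olfr613, 5 of 52 rows had a read, with 1 and 29 counts in KO and 0 and 8 in WT, and its nearest neighbours Olfr612 and Olfr615 had 0 counts. The windows of Olfr613 and Olfr646 overlap, and all 5 of these rows are also counted in the window of Olfr646. The 20 rows around Olfr856-ps1 had none. Olfr646 and Olfr414 thus had the larger shares of neighbours with reads, and Olfr856-ps1 was the only olfactory receptor row with reads in its window.

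In Fmn2, Zfp317 and Zfp560, the nearest genes of other families with reads that are named here, both KO libraries did not lie above both WT libraries. Within the 500 kb windows, some other genes of other families did lie higher in both KO libraries, and others did not. Trim34a near Olfr646 had 270 and 282 counts in KO and 188 and 163 in WT. Ifi205 near Olfr414 had 115 and 176 counts in KO and 17 and 32 in WT. Trim12c near Olfr646 had 1672 and 2417 counts in KO and 2410 and 2494 in WT. Fmn2, an actin nucleator 67.1 kb after Olfr414, had 85 and 49 counts in KO and 176 and 192 counts in WT (log2 fold change -1.15, edgeR quasi-likelihood test, adjusted p = 0.157). Zfp560, on the other side of Olfr856-ps1 from Zfp317, had 342 and 351 counts in KO and 498 and 620 counts in WT. The nearest genes Mptx1, Usp17lc, Hbb-bt, Hbb-y, Pramel7 and 4833423E24Rik, had 0 counts. GENCODE annotates Olfr643 on the opposite strand across the whole of Olfr646. Olfr643 had 1 and 8 counts in KO and 0 and 4 counts in WT. Of 3776 words of 76 bases in Olfr646, 8 occur in transcripts of other genes, so GENCODE's exons of the pair share little sequence. Where their exons overlap, reads of the pair cannot be told apart without a stated strand setting. The annotation behind the counts is not given in the sources used here.

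**Figure D4:**
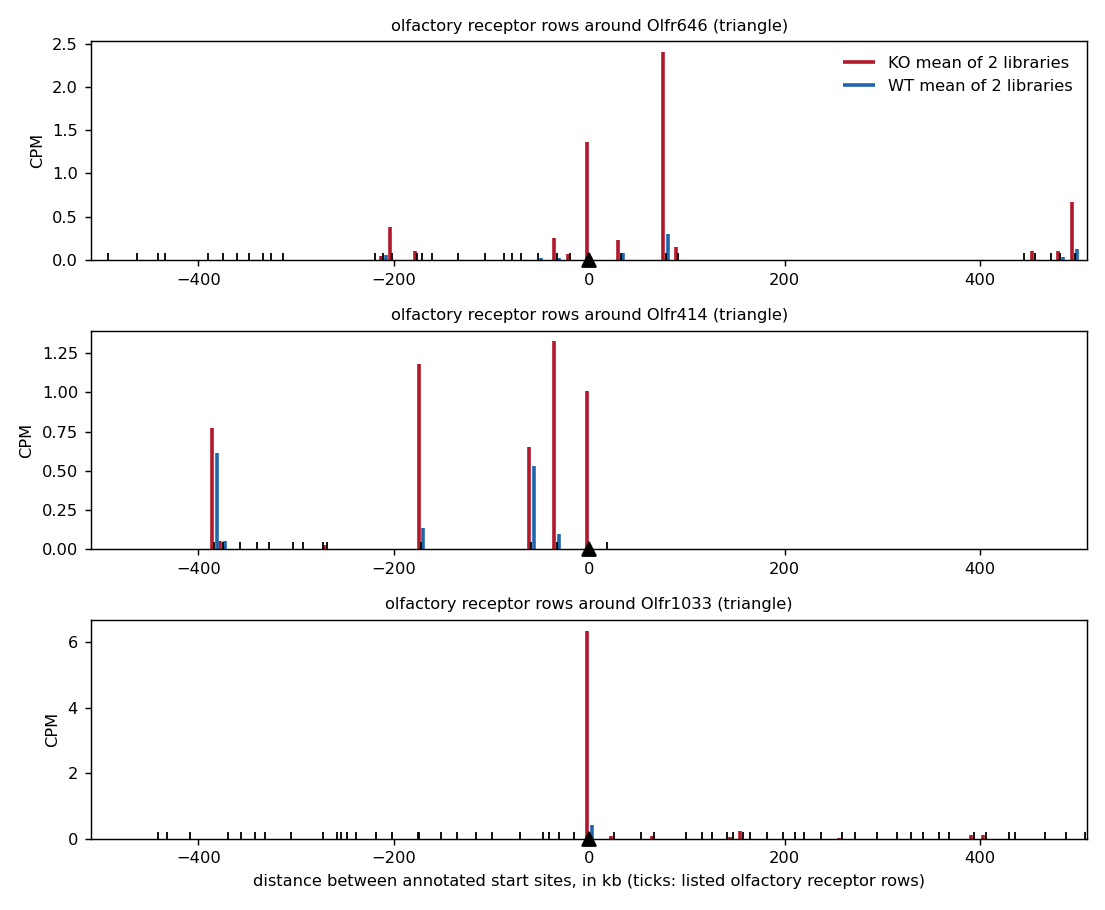
Mean CPM of the olfactory receptor rows in KO and in WT (2 libraries each) within 500 kb of Olfr646, Olfr414 and Olfr1033, by distance between annotated start sites in kb. Olfr646 and Olfr414 have neighbours with reads, among them Olfr648 and Olfr248, while Olfr1033 stands far above the other rows of its window.

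The genes with the most similar profile over the 4 libraries were taken by the distance between centred log2(CPM + 0.5) values, among 12419 tested protein-coding genes. For Olfr613 these were Zfp488, Rora and Wdr17 (distances 0.049 to 0.057), and for Olfr856-ps1 Myh10, Mroh8 and Ribc1 (0.046 to 0.103). For Olfr1033 they were Cyp4b1, Cxcl9 and Clca3a1 (0.224 to 0.296). For Olfr414 they were Amy1, Mageb16 and Ifitm6 (0.105 to 0.169), and for Olfr646 Cd248, Slc34a3 and Itgb3 (0.098 to 0.174). Rora, a nuclear receptor, stood at 60.5 and 76.5 CPM in KO and 26.0 and 28.2 CPM in WT, and the chemokine Cxcl9 at 17.0 and 35.1 CPM in KO and 3.45 and 3.14 CPM in WT. With 4 libraries such distances only describe a shape. The added 0.5 CPM also shrinks the differences of genes at low levels. Wdr17, listed for Olfr613, stood at only 0.678 and 0.965 CPM in KO and 0 and 0.08 CPM in WT.

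The genes that carry an odorant signal in the nose were partly without reads. Of 23 listed genes, 15 could be tested, and 6 had 0 counts throughout, namely the channel subunits Cnga2 and Cnga4, the chloride channel Ano2, the receptor transporters Rtp1 and Rtp2, and Stoml3. Gng13, the G protein gamma subunit of olfactory neurons, had 1 count in all. Omp, the olfactory marker protein, had 21 and 20 counts in KO and 29 and 24 counts in WT. Gnal, which encodes the olfactory G protein alpha subunit and is also expressed elsewhere, stood at 17.4 and 21.9 CPM in KO and 14.4 and 20.6 CPM in WT (log2 fold change 0.17, edgeR quasi-likelihood test, adjusted p = 0.768). The 9 olfactory neuron markers together summed to 18.3 and 23.0 CPM in KO and 15.5 and 21.5 CPM in WT, nearly all of it from Gnal. Of 6 general neuron markers, Snap25, Syt1 and Stmn2 had no read, and the list summed to 0.63 and 0.56 CPM in KO and 0.07 and 0.16 CPM in WT.

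Among the 15 tested signalling genes, 1 was higher in KO (6.7%, against 3.77% of all genes) and 3 were lower (20.0%, against 3.01%), with a median log2 fold change of 0.17. The beta-arrestin gene Arrb2, which takes up many receptors, rose to 98.7 ± 1.74 CPM in KO, against 60.2 ± 8.63 CPM in WT (SD, n = 2 each), with a log2 fold change of 0.71 (edgeR, adjusted p = 0.0366). The kinase genes Camk2d, at 62.8 ± 8.28 CPM in KO and 102 ± 7.10 CPM in WT (-0.70, edgeR, adjusted p = 0.0384), and Prkaca, at 62.2 ± 13.1 CPM in KO and 101 ± 5.15 CPM in WT (-0.70, edgeR, adjusted p = 0.0493), fell. These genes serve many other pathways besides olfaction. Adcy3, the olfactory adenylyl cyclase, had 17.1 and 8.58 CPM in KO and 4.67 and 6.52 CPM in WT (1.20, edgeR, adjusted p = 0.101). It passed in edgeR without a filter (adjusted p = 0.0286) but not with DESeq2 (adjusted p = 0.065). Its log2 fold change was 0.61 without KO replicate 1 and 1.61 without KO replicate 2. Pde4a (0.63), Adrbk2 (0.53) and Gnb1 (-0.35) did not pass either. None of Arrb2, Camk2d and Prkaca passed in edgeR's test without WT replicate 1 (adjusted p from 0.187 for Camk2d to 0.368 for Arrb2) or without WT replicate 2 (from 0.118 for Arrb2 to 0.237 for Prkaca). Prkaca also missed without KO replicate 2 (adjusted p = 0.121).

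Genes that take part in choosing or silencing olfactory receptor genes in neurons were mostly expressed in the LSK libraries. Of 24 such genes 21 were tested, 0 were higher in KO and 4 were lower (19.0%, against 3.01% of all genes), with a median log2 fold change of -0.22. The 4 include Zfp521, the deleted gene, and without it 3 of 20 were lower (15.0%). At an unadjusted p under 0.05, 1 was higher and 6 were lower, and DESeq2 called 1 higher and 5 lower. Besides Zfp521, at 12.4 ± 2.12 CPM in KO and 56.8 ± 1.03 CPM in WT (-2.19, edgeR, adjusted p = 0.000491), the called genes were Ebf1, at 12.2 ± 6.23 CPM in KO and 80.7 ± 21.9 CPM in WT (-2.72, edgeR, adjusted p = 0.00110), and the heterochromatin protein 1 genes Cbx5 and Cbx3. Cbx5 fell to 471 ± 51.5 CPM in KO, against 839 ± 127 CPM in WT (-0.83, edgeR, adjusted p = 0.0114). Cbx3 fell to 383 ± 29.4 CPM in KO, against 661 ± 84.4 CPM in WT (-0.79, edgeR, adjusted p = 0.0117). Their paralog Cbx1 did not pass (-0.49, edgeR, adjusted p = 0.105). Cbx1 passed in edgeR without a filter (adjusted p = 0.0459) but not with DESeq2 (adjusted p = 0.0648). Without WT replicate 1, Cbx3 (adjusted p = 0.143) and Cbx5 (adjusted p = 0.127) missed the threshold. Ebf1 is also 1 of the B lineage markers.

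The other EBF genes were rare. Ebf4 had 44 and 27 counts in KO and 5 and 3 counts in WT (log2 fold change 3.43, edgeR, adjusted p = 0.0620), with no overlap between the groups. Ebf3 had 54 and 0 counts in KO and 37 and 6 in WT, and Ebf2 had 1 count in all. The homeodomain gene Lhx2, a partner of EBF proteins at olfactory receptor enhancers, had 10 and 0 counts in KO and 26 and 4 counts in WT, and Emx2 had none. The corepressor gene Trim28 had a log2 fold change of -0.47 and did not pass (edgeR, adjusted p = 0.0881), but it passed with DESeq2 (adjusted p = 0.0415), and in edgeR without a filter (adjusted p = 0.0326) and without KO replicate 1 (adjusted p = 0.0282). The lamin B receptor gene Lbr, at -0.29, and the histone methylation genes Setdb1, at -0.22, Kdm1a, at -0.04, and Ehmt2, at 0.25, did not pass.

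**Figure D5:**
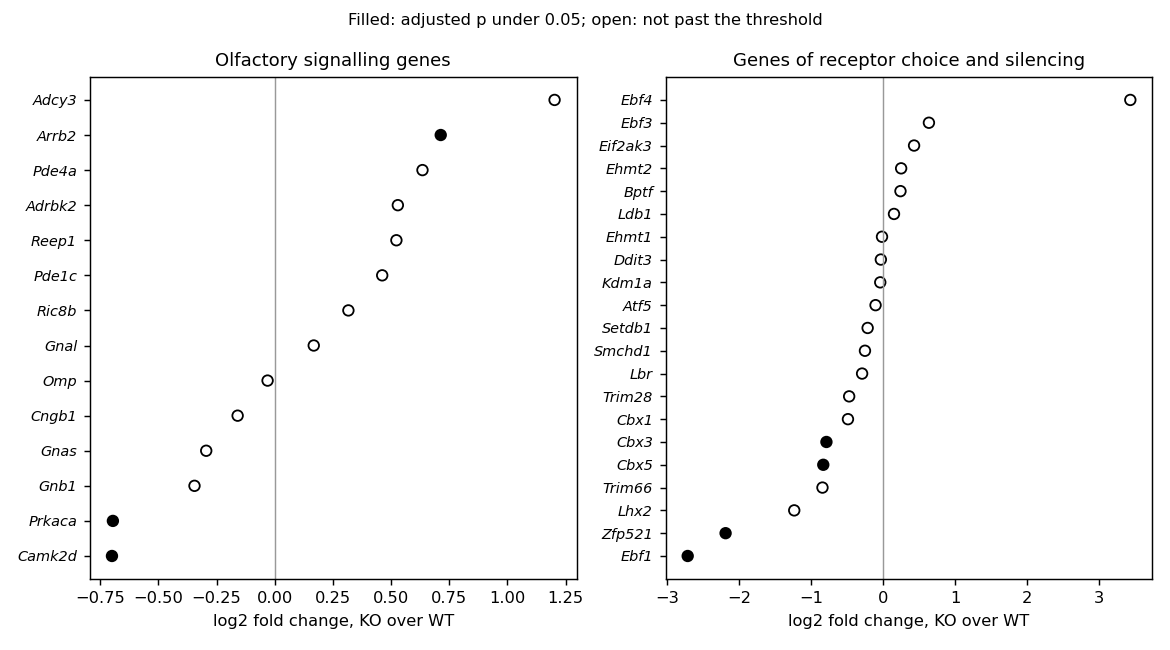
Log2 fold change, KO over WT, of tested genes in the 2 olfactory lists, filled where the adjusted p of edgeR's test is under 0.05. Of the signalling genes Arrb2 is the filled point to the right and Prkaca and Camk2d are those to the left, and of the choice and silencing genes Cbx3, Cbx5, Zfp521 and Ebf1 lie to the left.

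Markers of some other blood cells also differed between the groups. Of 9 mast cell and basophil markers 7 were called higher in KO, and the 9 summed to 442 and 285 CPM in KO and 152 and 155 CPM in WT. Gata2, which was not called, gave 224 and 159 CPM of this in KO and 132 and 137 CPM in WT. Of 10 dendritic cell markers 6 were called higher, with sums of 1588 and 1463 CPM in KO and 554 and 592 CPM in WT. Flt3, which was not called and is also in the list of the sorted fraction, gave 545 and 607 CPM of this in KO and 418 and 456 CPM in WT. Neutrophil markers (6 of 8 higher) summed to 1052 and 783 CPM in KO and 379 and 539 CPM in WT, and monocyte and macrophage markers (3 of 8 higher) to 296 and 260 CPM in KO and 161 and 155 CPM in WT. Of 6 megakaryocyte and platelet markers 2 were called higher, with 80.2 and 60.6 CPM in KO and 33.7 and 34.7 CPM in WT. Of 8 B lineage markers 7 were called lower, with 94.9 and 69.1 CPM in KO and 380 and 470 CPM in WT. Each of these lists had reads for all its markers. Erythroblast markers (3 of 7 tested, Hba-a1 and Hbb-bt at 0 counts) summed to 119 and 84.2 CPM in KO and 15.8 and 64.7 CPM in WT, and T and NK cell markers (4 of 6 tested) to 52.6 and 52.3 CPM in KO and 63.2 and 63.4 CPM in WT. The part of these cells in the levels of the olfactory receptors was not tested.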

How the data were processed

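Per the labels' protocols, libraries were built from 20 ng of LSK cell RNA (NuGEN Ovation Ultralow) and sequenced on a NextSeq 500 for 76 cycles. The authors deposited unnormalized counts of reads for each gene symbol. The submitters' processing notes name TopHat2 2.1.1, SAMtools 1.5, Picard 2.9.4, HTSeq 0.8.0 and the build mm10. For annotation, strand setting and duplicate handling, the choice is not given in the sources used here.

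Counts were tested with edgeR 4.0.16 (R 4.3.3): TMM factors, filterByExpr (minimum count 10, minimum total 15), the quasi-likelihood test of KO against WT without covariates, and Benjamini-Hochberg adjustment over the 14140 genes tested, at 0.05. Folds of the members are pooled counts over scaled library sizes. The fit was tested on simulated data. GENCODE M21 and RefSeq GRCm38.p6, both of the mm10 assembly, gave positions, transcripts and start windows; 1114 olfactory receptor rows were matched to GENCODE. Relatives were found with blastn 2.17.0.

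The members and lists were chosen with earlier results of these data known. Genes named are the members, up to 10 other olfactory receptor rows by total with at least 10 reads, the nearest listed genes of other families, 3 genes of similar profile per member, every called gene of the 2 olfactory lists and 4 more of each by smallest p. Olfr419, Olfr1420, Ebf2, Ebf3, Lhx2, Emx2, Setdb1, Kdm1a, Ehmt2, Vmn1r58 and the signalling genes at or near 0 were named after their values were seen. Alternatives were DESeq2 1.42.0, other scalings and filters, a replicate block and leaving out each library. Some genes that this rule covers are not reported here.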

Additional observations from a re-analysis of the deposited data

How the results depend on the processing

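The members were chosen for their direction, so its sign under other scalings and without single libraries supports nothing. The log2 ratio of the summed level, 1.48, moved to 1.88 without the 5 members, and lay between 1.34 and 1.62 when each library was left out. The ratio of rows with a read, 1.68, was 1.85 with libraries thinned to the smallest total, an alternative added after seeing the data, and 1.55 to 1.85 without single libraries. The bounds for Olfr414 lay between 3.09 and 4.57 on the log2 scale and for Olfr646 between 3.25 and 5.26, as the floor and the KO counts depend on the libraries left in.

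Counts of called genes depended on the processing far more. Without a filter 1056 genes were higher and 987 lower in KO, and with DESeq2 858 and 816. Leaving out each library gave 160 to 997 higher and 95 to 1161 lower. Of the signalling genes 2 were higher without a filter, 1 was lower with upper quartile factors, and 0 to 2 were higher and 0 to 5 lower without single libraries. Of the choice and silencing genes 1, Ebf4, was higher with the stricter filter and with DESeq2, and 0 were higher and 2 to 6 lower without single libraries.

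The replicate numbers were not used as pairs, as the labels name no shared litter or day. Deviations of same-numbered libraries correlated at 0.076 across genes. With 2 libraries per group this is a single correlation and cannot exclude a pairing. With the replicate block 1314 genes were higher and 1317 lower, 2 signalling genes were higher, and 1 choice gene was higher.

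Depth limits the values of Olfr414 and Olfr646: 0 counts in WT allow up to 3 counts over the group, and the exact level in WT is not detectable at this depth.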
